A study of Mus musculus with 44 samples.

Results

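Most of the genes described here encode the nuclear part of the mitochondrial respiratory chain, with Cox6a2, an isoform subunit of cytochrome c oxidase, as the member that differed most. Members were taken by name from the tables of RPKM, read counts scaled to gene length and library depth, of sorted microglia. The pattern covered the Nduf, Sdh, Uqcr, Cox4 to Cox8 and Atp5 genes, and 1 pseudogene name was left out. It gave 86 members of 37583 genes, of which 6, Cox4nb among them, match by name and were assigned to no complex here. Of the 86 members, 84 reached 1 RPKM in at least 5 libraries of each sex, among 14591 genes tested in females and 13845 in males. The remaining members, Cox7b2 and Cox8c, are isoforms best known from testis, and reached 1 RPKM in 0 libraries. The kept member nearest to the limit was Atp5l2, annotated as a pseudogene, which reached it in 13 female and 7 male libraries.

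Microglia, the resident macrophages of the brain, had been sorted from mice aged 8 months on the surface proteins CD11b and CD45. Female groups were 5xFAD T96K/T96K with 7 libraries, 5xFAD T96K/+ with 9, 5xFAD Trem2+/+ with 6 and NonTg Trem2+/+ with 5. Male groups were 5xFAD T96K/T96K with 6 libraries, 5xFAD T96K/+ with 6 and 5xFAD Trem2+/+ with 5. 5xFAD mice carry mutant human transgenes of familial Alzheimer's disease driven by a neuronal promoter and form amyloid plaques, and T96K is an amino acid change in Trem2, a lipid-sensing receptor of microglia. No NonTg male library and no T96K library without 5xFAD was analysed here, so the 5xFAD comparison is a female one and each T96K comparison lies within 5xFAD.

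The respiratory chain passes electrons from NADH (complex I) and succinate (complex II) through complex III to cytochrome c oxidase (complex IV), and ATP synthase (complex V) uses the proton gradient this builds. A few large core subunits carry the catalytic centres, and many small accessory subunits surround them. Mitochondrial DNA encodes some core subunits, which were not analysed here. Several complex IV subunits exist as isoforms, and the Cox6a2, Cox7a1 and Cox8b forms are best known from heart and skeletal muscle.

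Libraries fell into separate depth ranges that follow their numbers. The 34 low-numbered libraries (up to 24 in females and 15 in males) had 5891716 to 15987895 reads assigned to genes, and the 10 high-numbered ones (from 25 in females and 21 in males) had 26500826 to 42374925. No label calls these sets batches, and every group held both. The library labelled female 5xFAD T96K/+ 22 had 0.416 RPKM of Xist and 29.3 RPKM summed over Y-linked genes, as in the male libraries (Xist up to 0.374, Y-linked sum 25.7 to 37.9) and unlike the other 26 female libraries (Xist 16.9 to 147, Y-linked sum up to 0.130). The main T96K/+ results are also given without it. Summed endothelial markers reached 797 to 2510 RPKM in female 5xFAD T96K/T96K, 443 to 1593 in T96K/+ and 443 to 1016 in Trem2+/+ libraries, against 1238 to 2746 in NonTg libraries, and 1, 6 and 8 of 8 were called lower than in NonTg in the same order. Summed microglial markers ranged from 6951 to 17089 RPKM in female 5xFAD libraries, against 3932 to 5781 in low-numbered and 9484 to 12746 in high-numbered NonTg libraries, and 1, 1 and 2 of 10 were called higher. Among all genes, 10.3%, 10.3% and 13.5% were called higher in the same order. Called lower were 5.05% in T96K/T96K, 7.07% in T96K/+ and 1466 of 14591 in Trem2+/+. The microglial counts, and the endothelial count in T96K/T96K, cannot be set apart from these shares. Astrocyte markers gave 1 of 7 called higher in each group and 4, 0 and 4 lower. Oligodendrocyte markers gave 2, 1 and 0 of 6 lower, and neuronal, neutrophil, monocyte, erythroid and striated muscle markers 0 calls. The part of this difference in cell content in the results was not tested beyond the fit with marker scores given with them, and in sorted bulk samples more cells of a type and more RNA per cell cannot be told apart.

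Cox6a2 was the member with the highest change in female 5xFAD microglia. It lies on mouse chromosome 7 at 135348950 to 135349880 of mm9, on the minus strand. It had 122 to 496 RPKM with a median of 207 in 5xFAD T96K/T96K libraries, 120.2 to 477 with a median of 188 in T96K/+, and 118 to 546 with a median of 255 in Trem2+/+. The NonTg libraries 4, 10, 24, 28 and 30 had 0.753, 1.06, 0.503, 19.1 and 15.7 RPKM. The 5xFAD and NonTg libraries did not overlap, and the lowest 5xFAD value was 6.19 times the highest NonTg value. In limma with Benjamini-Hochberg adjustment over all genes, the log2 change against NonTg was 5.62 ± 0.54 (SE, adjusted p = 5.69e-08) for T96K/T96K, 5.31 ± 0.52 (adjusted p = 5.71e-08) for T96K/+ and 5.79 ± 0.56 (adjusted p = 5.70e-08) for Trem2+/+. These comparisons share the same NonTg libraries.

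NonTg libraries were split by library set in this gene. The low-numbered NonTg libraries 4, 10 and 24 rested on 9, 6 and 5 reads of Cox6a2, with 95% Poisson intervals of 0.344 to 1.43, 0.389 to 2.31 and 0.163 to 1.17 RPKM that cover counting error only. The high-numbered NonTg libraries 28 and 30 held 371 and 362 reads. Among low-numbered libraries the 5xFAD mean was 189 RPKM, against 0.772 RPKM in NonTg, a ratio of 245. Among high-numbered libraries it was 376 RPKM, against 17.4 RPKM in NonTg, a ratio of 21.6. Its direction was the same in both sets. With high-numbered libraries alone, a fit with a single 5xFAD Trem2+/+ library, the log2 changes were 3.98 for T96K/T96K, 4.06 for T96K/+ and 4.90 for Trem2+/+, and the adjusted p was 0.149, 0.104 and 0.120. Without library 22 the T96K/+ change was 5.38 (adjusted p = 8.98e-08).

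**Figure D1:**
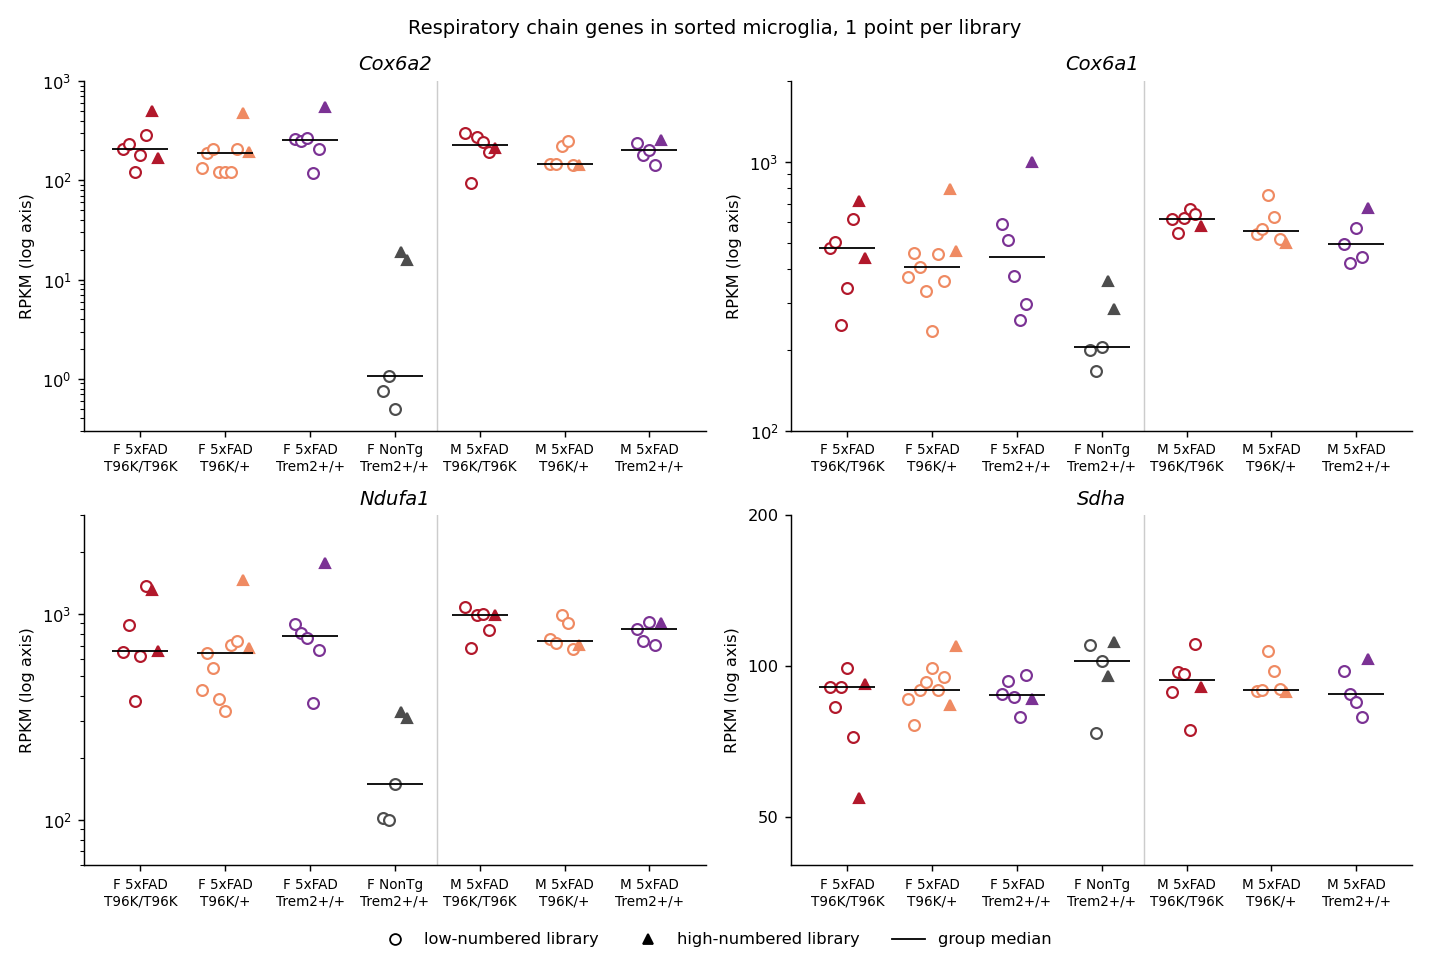
RPKM on a log axis of Cox6a2, Cox6a1, Ndufa1 and Sdha in 44 libraries, grouped by sex and genotype (F, female; M, male). Open circles are low-numbered and filled triangles high-numbered libraries, bars are group medians; Cox6a2 lies at 118 RPKM or more in every female 5xFAD library, against 19.1 RPKM or less in NonTg, while Sdha overlaps in all groups.

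Male 5xFAD microglia carried Cox6a2 at similar RPKM, although the separately scaled tables allow no test between the sexes. It had 94.4 to 298 RPKM with a median of 228 in male T96K/T96K libraries and 141 to 251 with a median of 146 in T96K/+. The male Trem2+/+ libraries had 239, 181, 200.8, 143 and 253 RPKM. The 3 male genotypes overlapped. T96K made no difference to Cox6a2 that passed the test in either sex. The log2 difference was −0.17 (95% interval −1.22 to 0.89, adjusted p = 0.989) for female T96K/T96K over Trem2+/+ and −0.48 (−1.48 to 0.52, adjusted p = 0.994) for female T96K/+ over Trem2+/+. In males it was 0.04 (−0.50 to 0.58, adjusted p = 0.967) for T96K/T96K over Trem2+/+ and −0.23 (−0.77 to 0.31, adjusted p = 0.700) for T96K/+ over Trem2+/+. Without library 22 the female T96K/+ difference was −0.41. Between the T96K genotypes it was 0.31 (−0.65 to 1.27, adjusted p = 0.978) in females and 0.28 (−0.24 to 0.79, adjusted p = 0.999) in males. These intervals are narrow beside the difference from NonTg.

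Cox6a1, the widely expressed isoform of the same subunit, was measured apart from Cox6a2. Their coding sequences were identical at 193 of 290 aligned bases (66.6%), and the longest run of bases shared by their transcripts was 12. The 60-base coding stretch in which they were most alike is shown because it is where reads of the pair could most easily be confused, with the 9 differing bases in capitals. It covers coding bases 235 to 294 of Cox6a1 (chromosome 5) and 190 to 249 of Cox6a2 (chromosome 7) in the mm9 annotation.
Cox6a1: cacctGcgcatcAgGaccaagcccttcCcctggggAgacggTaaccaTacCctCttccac
Cox6a2: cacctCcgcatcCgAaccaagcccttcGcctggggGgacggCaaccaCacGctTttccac
Cox6a1 had 247 to 714 RPKM with a median of 481 in 5xFAD T96K/T96K, 235 to 790.3 with a median of 405 in T96K/+, and 259 to 1001 with a median of 444 in Trem2+/+ female libraries. The NonTg libraries 4, 10, 24, 28 and 30 had 200.4, 167, 205, 360.0 and 284 RPKM. All 5xFAD libraries lay above the 3 low-numbered NonTg libraries and overlapped the high-numbered ones. Cox6a1 rose by a log2 of 0.95 ± 0.31 in T96K/T96K (SE, adjusted p = 0.0344) and 0.95 ± 0.32 in Trem2+/+ (adjusted p = 0.0291), and its 0.81 ± 0.29 in T96K/+ did not pass the test (adjusted p = 0.0560, and 0.0738 without library 22).

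By summed RPKM, Cox6a2 therefore made up a larger share of the pair in every female 5xFAD group than in NonTg females. Its share of the summed RPKM was 32.8% ± 4.25 in T96K/T96K (SD, n = 7), 30.4% ± 5.39 in T96K/+ (n = 9), 35.4% ± 4.75 in Trem2+/+ (n = 6) and 2.30% ± 2.59 in NonTg females (n = 5). Without library 22 the T96K/+ share was 31.6% ± 4.40 (SD, n = 8). In males it was 25.8% ± 6.35 in T96K/T96K (n = 6), 22.8% ± 3.00 in T96K/+ (n = 6) and 28.1% ± 3.18 in Trem2+/+ (n = 5). Gene lengths of 655 bases for Cox6a2 and 969 for Cox6a1 enter these shares, so their absolute size depends on the lengths used. The other tissue isoforms stayed minor. In female 5xFAD Trem2+/+ libraries Cox4i2 was 0.452%, Cox6b2 0.935%, Cox7a1 2.60% and Cox8b 0.964% of their pairs with Cox4i1, Cox6b1, Cox7a2 and Cox8a, against 1.51%, 1.90%, 4.70% and 1.63% in NonTg. None of these minor isoforms passed the test against NonTg in any 5xFAD group, and each averaged under 6 RPKM in every group of both sexes. Of 10 striated muscle markers, at least 7 were under 1 RPKM in every library of each group, and their sum was 2.96 to 10.6 RPKM over all 44 libraries. Myl2, Tnni3 and Acta1 were the only ones of the 10 to pass 1 RPKM in any library.

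Cox6a2 neighbours the integrin genes Itgam, Itgax and Itgad, and its end overlaps the end of Itgad on the other strand by 66 bases. Itgad did not reach the limit for testing and had 0.0719 to 0.543 RPKM over the female libraries, far below Cox6a2 in 5xFAD, although the library chemistry does not keep the strand. Itgax, which encodes CD11c, had 42.4 to 90.1 RPKM in T96K/T96K, 36.5 to 144 in T96K/+ and 35.1 to 154 in Trem2+/+ females, against 0.141 to 6.91 RPKM in NonTg. It rose by a log2 of 4.49 ± 0.43 (SE, adjusted p = 5.39e-08), 4.42 ± 0.41 (adjusted p = 2.72e-08) and 4.67 ± 0.44 (adjusted p = 4.60e-08) in the same order, and by 4.50 in T96K/+ without library 22. Itgam, which encodes CD11b, one of the sorting proteins, changed by 0.42 to 0.62 with no call, the lowest adjusted p being 0.140. On the far side, Armc5 (0.16 to 0.33) and 9130023H24Rik (−0.19 to 0.05) were not called either. Tgfb1i1, a focal adhesion gene, fell by 0.83 ± 0.25 in T96K/+ (adjusted p = 0.0228) and by 0.96 ± 0.27 in Trem2+/+ (adjusted p = 0.0116), and its −0.60 in T96K/T96K was not called. Of the 6 genes tested here, Cox6a2 and Itgax were the only ones called higher. Among all genes, 10.3%, 10.3% and 13.5% were called higher in T96K/T96K, T96K/+ and Trem2+/+. With 6 genes, Cox6a2 among them, the count cannot be set apart from these shares.

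**Figure D2:**
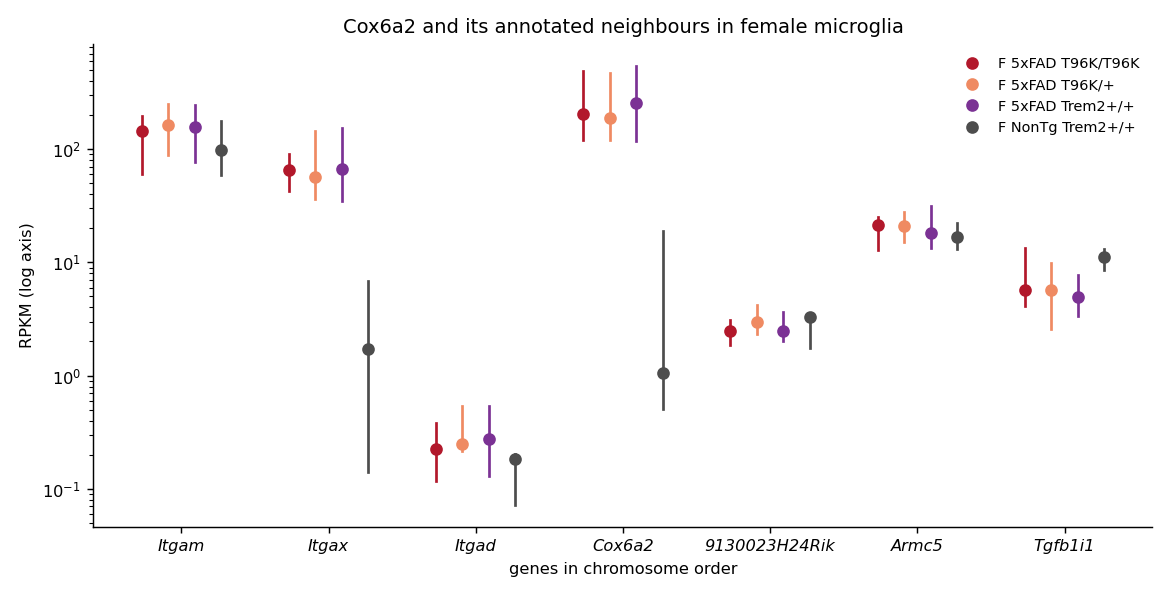
RPKM on a log axis of Cox6a2 and the annotated genes around it, in chromosome order, in the 4 female groups. Points are group medians and lines run from the lowest to the highest library; Itgax and Cox6a2 are apart between 5xFAD and NonTg, and Itgad is below 1 RPKM in every library.

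Among the 22 female 5xFAD libraries, the genes whose log2 values followed Cox6a2 most closely were Cd52 (Pearson r = 0.970), Cd63 (0.955), Pafah1b3 (0.936), Ramp1 (0.930) and Igf1 (0.927), of 12046 genes ranked. Gene models named Gm, Rik or AC, and names that start with a digit, were left out of the ranking in both sexes. Ndufa1 ranked 7 with 0.923, Cox6a1 had 0.858 and Itgax 0.653. Over the 21 libraries without library 22, Cd52 led with 0.969, Ndufa1 ranked 2 with 0.956, and Cox6a1 had 0.896. Over the 17 male 5xFAD libraries the closest were Tmem176a (0.958), Hcst (0.954), Fcer1g (0.947), Cklf (0.945) and Tnni2 (0.939), a fast muscle troponin that was not on the marker list and had 11.2 to 22.8 RPKM, so the leading genes differed between the tables. Ndufa1 had 0.885 there and Cox6a1 0.517. These correlations are descriptive, since the libraries share depth and library set.

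Among the other members, several small subunits rose, while the larger Sdha, Atp5b, Ndufs1 and Uqcrc1 were not called. In 5xFAD T96K/T96K, 24 of 84 members (28.6%) were called higher and 0 lower, where 10.3% of all genes were called higher, 5.05% lower and 15.3% in either direction. In T96K/+, 13 of 84 (15.5%) were called higher and 0 lower, where 10.3% of all genes were called higher, 7.07% lower and 17.3% in either direction, so this share was close to the background. In Trem2+/+, 34 of 84 (40.5%) were called higher and 1 lower, where 13.5% of all genes were called higher and 23.6% in either direction, which leaves 1466 of 14591 lower. The median log2 change of the members was 0.44, 0.31 and 0.52 in the same order, beside 0.03, 0.03 and 0.04 over all genes tested. The same 13 genes were called higher in all 3 comparisons, which share their NonTg libraries: Cox6a2, Ndufa1, Ndufa2, Ndufa3, Uqcrh, Uqcrq, Cox4i1, Cox6b1, Cox7b, Cox7c, Cox7a2l, Atp5e and Atp5j2.

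The direction of the list depended on how libraries were scaled. After rescaling to TPM, which fixes each library's sum, the median change of all genes was −0.50, −0.45 and −0.51 in T96K/T96K, T96K/+ and Trem2+/+. The calls then became 8 higher and 27 lower in T96K/T96K, 3 and 30 in T96K/+, and 7 and 22 in Trem2+/+. With quantile normalization they were 13 and 7, 8 and 7, and 16 and 7. Relative to the all-gene median the members stayed above it under TPM, their own medians being −0.13, −0.21 and −0.06. The genes called higher under TPM were all among those called higher in RPKM, Cox6a2, Ndufa1 and Atp5e in every group, and none called higher in RPKM turned to a lower call.

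Depth sets, marker content and single libraries also moved these counts. Low-numbered libraries alone gave 32 higher and 2 lower in T96K/T96K, 22 and 2 in T96K/+, and 32 and 2 in Trem2+/+, whereas high-numbered libraries alone gave 0 calls in each, with member medians of 0.42, 0.46 and 1.17. With the mean levels of neutrophil, oligodendrocyte and endothelial markers in the model, the called members were Cox6a2 and Ndufa1 in T96K/T96K and Cox6a2 alone in T96K/+ and in Trem2+/+, and the member medians were 0.22, 0.11 and 0.26. In T96K/T96K the 24 calls became 11, 14 (1 of them lower) and 12 without NonTg libraries 4, 10 and 24. They became 15, 14 and 12 without T96K/T96K libraries 9, 21 and 27. In T96K/+ the 13 calls became 4, 5, 5 and 22 (2 of them lower) without NonTg libraries 4, 10, 24 and 28. The T96K/+ calls became 20 and 21 (1 lower in each) without Trem2+/+ libraries 19 and 25, and 27 and 7 without T96K/+ libraries 18 and 26. Without library 22 they became 11, of which 10 were higher and 1 lower. Ndufa3, Uqcrh and Cox7b were then no longer called higher (0.82, 0.74 and 0.77, adjusted p = 0.0573, 0.0623 and 0.0600). Ndufa1 (1.76, adjusted p = 0.00231), Atp5e, Cox7c and Cox7a2l still were. In Trem2+/+ the 35 calls (1 of them lower) became 19 and 20 (0 and 1 lower) without NonTg libraries 4 and 10. They became 20 and 17 (0 and 1 lower) without Trem2+/+ libraries 1 and 25.

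**Figure D3:**
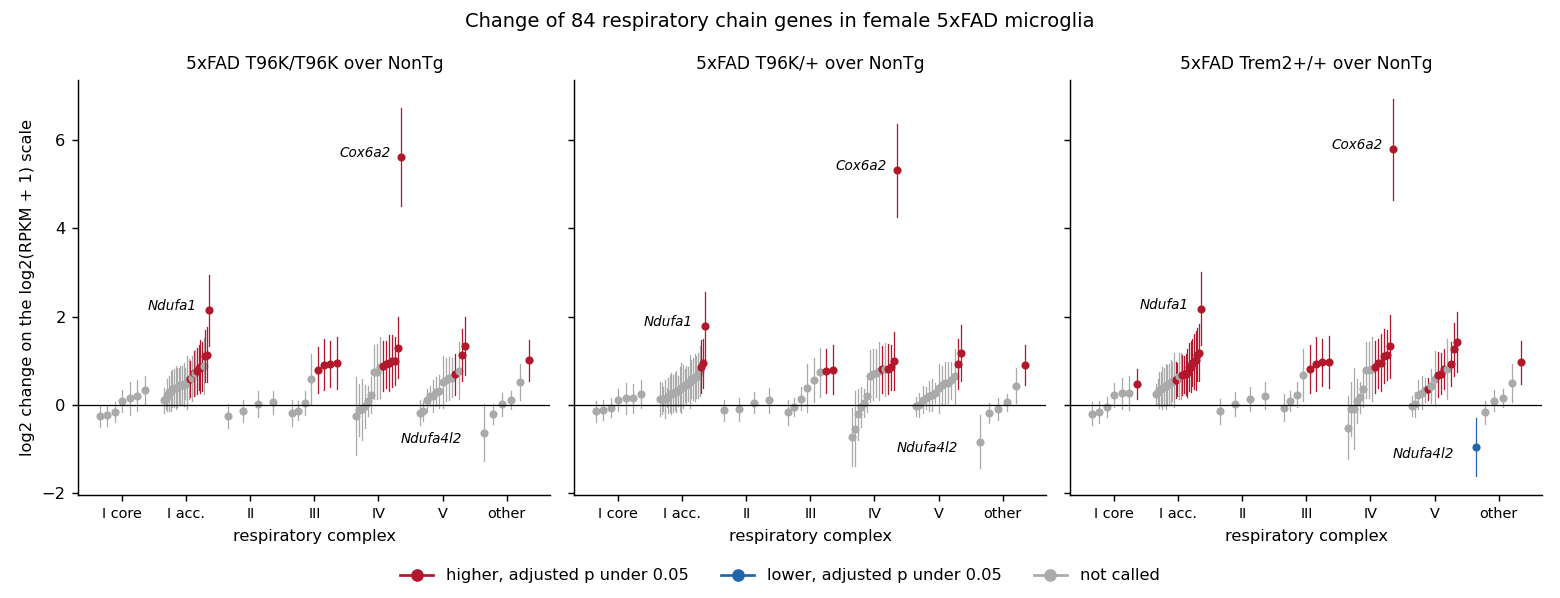
Log2 change of the 84 kept members in female 5xFAD T96K/T96K, T96K/+ and Trem2+/+ microglia over NonTg, by respiratory complex, on the log2(RPKM + 1) scale with 95% intervals. Red points were called higher, blue lower and grey not called; Cox6a2 stands at 5.62, 5.31 and 5.79 and complex II members near 0, though under TPM scaling the calls of the list turn mostly lower.

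Of the 28 accessory members of complex I, 9 (32.1%) were called higher in T96K/T96K, 3 (10.7%) in T96K/+ and 14 (50%) in Trem2+/+, and 0 lower. The share of all genes called higher was 10.3%, 10.3% and 13.5%, so that in T96K/+ was at the background. Ndufa1, a small membrane-anchored subunit needed for assembly of the complex, led them. It had 379 to 1360 RPKM with a median of 659 in T96K/T96K, 337 to 1459 with a median of 643 in T96K/+ and 369 to 1761 with a median of 784 in Trem2+/+. The NonTg libraries 4, 10, 24, 28 and 30 had 102, 99.1, 149, 332 and 313 RPKM. All 5xFAD libraries lay above all NonTg libraries, the closest being T96K/+ library 18. Its log2 change was 2.14 ± 0.39 (SE, adjusted p = 3.33e-04), 1.79 ± 0.37 (adjusted p = 0.00133) and 2.18 ± 0.40 (adjusted p = 3.27e-04). Ndufa2 (1.11, 0.95 and 1.13) and Ndufa3 (1.14, 0.87 and 1.18) were the next.

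The 7 core members of complex I are larger proteins that hold the flavin and the iron-sulphur clusters. None was called in T96K/T96K or T96K/+, and Ndufs8, an iron-sulphur protein, was the only one called in Trem2+/+ (0.47 ± 0.16, adjusted p = 0.0389). Ndufs1, the largest of them and named here after its values were seen, had 9.06 to 15.5 RPKM in T96K/T96K, 11.6 to 17.8 in T96K/+ and 11.9 to 16.2 in Trem2+/+, against 17.2, 12.7, 20.04, 14.2 and 15.8 RPKM in the NonTg libraries. The groups overlapped, and its log2 changes of −0.25, −0.15 and −0.20 were not called. Among all genes, 15.3%, 17.3% and 23.6% were called in either direction in T96K/T96K, T96K/+ and Trem2+/+. With 7 core and 4 complex II members, the counts cannot be set apart from these shares. Complex II, succinate dehydrogenase, has 4 nuclear subunits and no mitochondrially encoded one, and 0 of 4 were called in any 5xFAD group. Sdha, its flavoprotein, had 54.5 to 98.9 RPKM in T96K/T96K, 76.1 to 109.6 in T96K/+ and 79.2 to 96.1 in Trem2+/+, against 110.3, 73.6, 102, 95.7 and 112 RPKM in NonTg. Its log2 changes were −0.25 ± 0.13, −0.10 ± 0.12 and −0.15 ± 0.13 (SE), while under TPM they were −0.83, −0.64 and −0.77 and called lower, below an all-gene median of −0.50, −0.45 and −0.51.

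In complex III, 4 (50%), 2 (25%) and 4 (50%) of 8 members were called higher in T96K/T96K, T96K/+ and Trem2+/+. Among all genes, 10.3%, 10.3% and 13.5% were called higher. The complex III members called were small subunits. Uqcrh, the hinge protein beside cytochrome c1, had log2 changes of 0.90, 0.79 and 0.97, and Uqcrq 0.93, 0.76 and 0.96. The large core proteins Uqcrc1 (−0.20, −0.17 and −0.06) and Uqcrc2 (−0.13, −0.05 and 0.08) were not called. In complex IV, 7 (43.8%), 5 (31.2%) and 7 (43.8%) of 16 members were called higher, beside the same shares of all genes. Cox7c had log2 changes of 1.30, 0.998 and 1.33, Cox6b1 0.995, 0.80 and 1.12, and Cox7b 0.99, 0.82 and 1.10. Cox4i1, the ubiquitous form of the largest nuclear subunit, had 510 to 1007 RPKM in T96K/T96K, 432 to 1069 in T96K/+ and 443 to 1439 in Trem2+/+, against 345, 280.4, 371, 572 and 461 RPKM in NonTg. The groups overlapped, and the log2 changes of 0.92, 0.85 and 0.94 passed the test (adjusted p = 0.0148, 0.0175 and 0.0119). Cox5a, which is also nuclear and common to all tissues, was not called (0.08, 0.04 and 0.17).

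Of the 15 ATP synthase members, 3 (20%), 2 (13.3%) and 7 (46.7%) were called higher, where 10.3%, 10.3% and 13.5% of all genes were. Atp5e, the smallest subunit of the catalytic head, had 109 to 272 RPKM in T96K/T96K, 70.3 to 229.6 in T96K/+ and 69.3 to 316 in Trem2+/+, against 52.3, 46.0, 49.0, 109 and 80.2 RPKM in NonTg. Low-numbered NonTg libraries lay below every 5xFAD library, and the high-numbered ones overlapped them. Its log2 change was 1.32 ± 0.32 (SE, adjusted p = 0.00492), 1.17 ± 0.30 (adjusted p = 0.00833) and 1.42 ± 0.33 (adjusted p = 0.00263). Atp5j2, a membrane-domain subunit, changed by 1.14, 0.93 and 1.25, all called. The catalytic Atp5b, also named after its values were seen, had 134 to 216 RPKM in T96K/T96K, 175 to 237 in T96K/+ and 175 to 269.6 in Trem2+/+, against 243, 160.2, 243, 198 and 211 RPKM in NonTg, and its log2 changes of −0.18, 0.00 and 0.01 were not called.

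Members outside the complexes gave both directions. Cox7a2l, a factor that helps to join complexes III and IV into supercomplexes, had 54.6 to 114 RPKM in T96K/T96K, 45.7 to 99.6 in T96K/+ and 45.5 to 122 in Trem2+/+, against 30.6, 26.2, 36.7, 47.1 and 45.1 RPKM in NonTg. It rose by a log2 of 1.01 ± 0.23, 0.90 ± 0.22 and 0.97 ± 0.24 (SE, adjusted p = 0.00296, 0.00478 and 0.00399). Ndufa4l2, a hypoxia-inducible relative of Ndufa4 that pericytes express, was the one member called lower, by 0.95 ± 0.32 in Trem2+/+ (adjusted p = 0.0313), with −0.63 and −0.83 not called in T96K/T96K and T96K/+. With high-numbered libraries alone this change was 0.42, the other way, in a fit that holds 1 Trem2+/+ and 2 NonTg libraries. Without library 22 the T96K/+ change was −0.89 and called lower (adjusted p = 0.0413). Of 6 mural markers, 1, 2 and 3 were called lower in T96K/T96K, T96K/+ and Trem2+/+. Among all genes, 5.05%, 7.07% and 1466 of 14591 were, and the T96K/T96K count cannot be set apart from its share. The mural sum was 178 to 1423, 137 to 894 and 133 to 708 RPKM, against 309 to 1092 RPKM in NonTg. The highest Ndufa4l2 and the highest mural sum fell in different libraries in T96K/T96K (34 and 27), T96K/+ (33 and 26) and NonTg (4 and 24). In Trem2+/+ both fell in library 25. The part of mural markers in the Ndufa4l2 result was not tested.

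Members with short coding sequences were called higher more often than members with long ones, as short genes were overall. Over the 83 members with an annotated coding sequence, the log2 change in 5xFAD Trem2+/+ over NonTg had a Spearman rho of −0.61 with coding length, beside −0.25 over 12060 genes, given as a description across genes that are not independent. Below 500 coding bases, 27 of 50 members were called higher, beside 30.9% of all genes of that length. From 500 to under 1000 bases, 6 of 22 were called higher, beside 18.4%. At 1000 bases or more, 1 of 11 was called higher, Ndufv3, an accessory complex I subunit, beside 9.25%. The part of gene length in the members' result was not tested further.

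**Figure D4:**
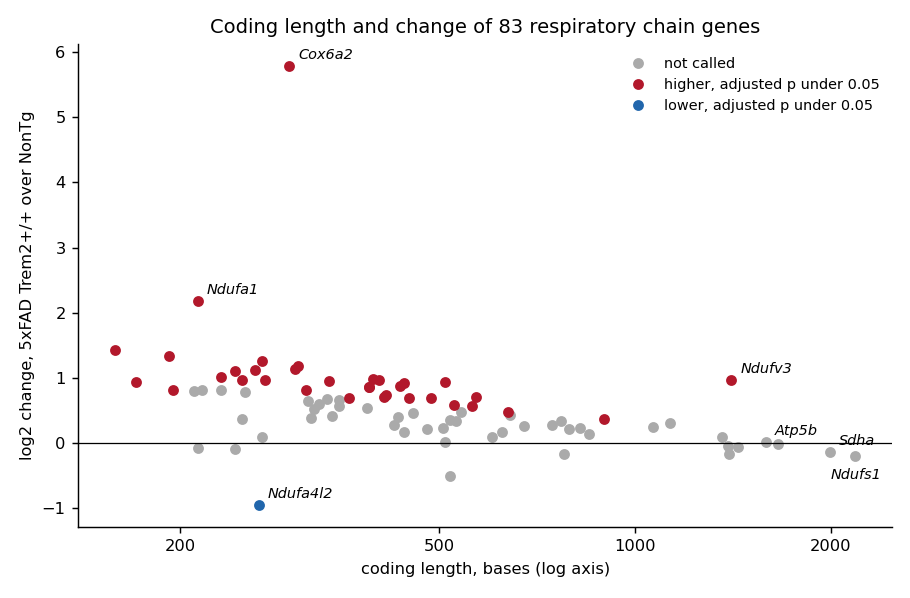
Log2 change in female 5xFAD Trem2+/+ over NonTg microglia against coding length on a log axis, 1 point for each of 83 members. Red points were called higher, blue lower and grey not called. Most short members, such as Ndufa1 (2.18), lie above 0, but Ndufa4l2 (−0.95) lies below. Long ones such as Sdha (−0.15) and Atp5b (0.01) lie near 0, but Ndufv3 (0.96) lies above, on the RPKM scale.

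Promoter sequences were compared because nuclear respiratory factor 1 (NRF1) and the ETS factor GABP are textbook activators of these genes. Of the 86 members, 66 had a RefSeq promoter (GRCm38.p6, 250 bases before to 50 after the gene start). Those not matched included Ndufa2, Ndufb9, Ndufs1, Sdhc, Uqcrb, Uqcrc2, Uqcrq, Cox4i1, Cox4i2, Cox6a2, Cox6c, Cox8c, Atp5a1, Atp5f1, Atp5l2, Atp5s, Atp5sl, Cox4nb and Ndufa4l2. Motifs were searched on both strands. The NRF1 motif, GCGCA and GCGC with 1 base of any kind between them, was in 17 of 66 (25.8%), beside 5.19% of 27025 genes. It was in 6 of 30 members called higher in Trem2+/+ and in 11 of 36 others. The ETS motif ACCGGAAG was in 6 of 66 (9.09%), beside 2.60%. The YY1 motif AAGATGGCG was in 7 of 66 (10.6%), beside 1.64%, and the PU.1 motif GAGGAAGT in 3 of 66 (4.55%), beside 3.69%. The ERR motif TCAAGGTCA was in 2 of 66 and the TFEB motif TCACGTGA in 1 of 66, beside 0.466% and 1.12%. The 250 upstream bases are shown for 3 members that were called higher, Ndufa1, Atp5e and Cox6a1, and for Sdha, which was not, each 5′ to 3′ on the gene's minus strand with NRF1 and ETS matches in capitals. They lie at chrX:37191239-37191488, chr2:174464102-174464351, chr5:115348959-115349208 and chr13:74350241-74350490.
Ndufa1: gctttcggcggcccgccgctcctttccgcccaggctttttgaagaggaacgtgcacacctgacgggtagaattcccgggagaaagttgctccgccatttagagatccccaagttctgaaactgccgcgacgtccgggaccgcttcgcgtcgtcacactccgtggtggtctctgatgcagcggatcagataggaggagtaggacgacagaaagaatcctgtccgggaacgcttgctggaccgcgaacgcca
Atp5e: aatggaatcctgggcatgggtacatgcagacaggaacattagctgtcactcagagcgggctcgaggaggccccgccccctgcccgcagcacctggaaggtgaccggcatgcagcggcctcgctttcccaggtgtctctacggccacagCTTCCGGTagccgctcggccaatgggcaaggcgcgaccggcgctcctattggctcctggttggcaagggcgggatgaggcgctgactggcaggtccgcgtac
Cox6a1: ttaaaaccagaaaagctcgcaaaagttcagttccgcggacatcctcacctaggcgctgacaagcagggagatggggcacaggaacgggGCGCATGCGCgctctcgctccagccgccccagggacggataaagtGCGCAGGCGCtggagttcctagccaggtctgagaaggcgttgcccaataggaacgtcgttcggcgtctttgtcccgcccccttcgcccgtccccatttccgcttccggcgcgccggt
Sdha: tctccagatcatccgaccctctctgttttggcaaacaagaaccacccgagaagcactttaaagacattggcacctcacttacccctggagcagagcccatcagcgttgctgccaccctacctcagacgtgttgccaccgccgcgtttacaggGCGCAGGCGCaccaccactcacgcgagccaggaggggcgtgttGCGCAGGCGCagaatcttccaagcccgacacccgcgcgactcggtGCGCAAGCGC
Sdha held 3 NRF1 matches, Cox6a1 held 2, Atp5e held 1 ETS match and Ndufa1 held 0 of the motifs searched in this window.

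The lists of genes that assemble, feed or regulate the chain gave 1 or 2 calls each in every comparison with NonTg. Among all genes, 15.3%, 17.3% and 23.6% were called in T96K/T96K, T96K/+ and Trem2+/+. The 16 tricarboxylic acid cycle genes and 12 regulators are too few to be set apart from these shares. Of 28 assembly factors tested, 1 was called higher in each comparison with NonTg, Cox17, the small copper chaperone of complex IV (log2 1.26 ± 0.34 in T96K/T96K, 0.9995 ± 0.33 in T96K/+ and 1.31 ± 0.36 in Trem2+/+, SE). Of 16 tricarboxylic acid cycle genes, Suclg2, a succinyl-CoA ligase subunit, was called higher in each (0.38, 0.50 and 0.65). Pdha1, a subunit of pyruvate dehydrogenase, was called lower in T96K/T96K (−0.61 ± 0.19, adjusted p = 0.0334) and not in the others. Of 12 regulators of respiratory genes, 2, 1 and 2 were called. Gabpb1, a subunit of GABP, was called lower in each (−0.46, −0.38 and −0.41), and Mef2c was called higher in T96K/T96K and Trem2+/+ (0.43 and 0.46). Without library 22, Cox17 and Gabpb1 were no longer called in T96K/+ (adjusted p = 0.0527 and 0.0657). The electron carriers cytochrome c (Cycs) and cytochrome c1 (Cyc1) were not called, with log2 changes of 0.11 and −0.16 in T96K/T96K and 0.27 and −0.07 in Trem2+/+.

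Most members varied together from library to library. Over the 22 female 5xFAD libraries the Pearson correlation of each member with the mean of the others had a median of 0.927, and 59 of 84 members had 0.8 or more (61 without library 22). The members below 0.3 included Ndufs1, Sdha, Atp5a1, Uqcrc1, Atp5sl, Atp5s, Atp5b, Ndufv1 and Cox4nb, most of them large or catalytic subunits, with −0.60 for Ndufs1. Over the 17 male libraries the median was 0.856, and the 6 members below 0.3 were Atp5sl, Ndufs1, Cox8b, Ndufa4l2, Sdha and Cox6b2, of which Cox8b, Ndufa4l2 and Cox6b2 are short. Single libraries were high across the chain. Library 25 was the highest of its group in 71 of 84 members in female Trem2+/+, library 26 in 63 in T96K/+, library 27 in 51 in T96K/T96K and library 28 in 49 in NonTg, all of them high-numbered. In males the high-numbered library 21 was the highest of Trem2+/+ in 67 of 84, but the low-numbered libraries 11 and 8 were the highest of T96K/T96K in 55 and of T96K/+ in 53.

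T96K moved no member past the threshold within 5xFAD. In females, limma called 0 of 84 members in each T96K comparison, as it did 0% of all genes. At an unadjusted p under 0.05, 2 members were lower in T96K/T96K over Trem2+/+, 1 was lower in T96K/+ over Trem2+/+ and 1 was higher in T96K/T96K over T96K/+, beside 1.73%, 2.15% and 1.81% of all genes in that direction. The members with the smallest p were Atp5s, an ATP synthase coupling factor, in both comparisons with Trem2+/+ (−0.30 ± 0.11, adjusted p = 0.974, and −0.28 ± 0.10, adjusted p = 0.994), and Cox4i2 in T96K/T96K over T96K/+ (0.63 ± 0.29, adjusted p = 0.978). Next by p were Uqcrc2 (−0.21) and Atp5f1 (−0.23) in T96K/T96K over Trem2+/+, Ndufa12 (−0.38) and Atp5g2 (−0.43) in T96K/+ over Trem2+/+, and Ndufb7 (0.36) and Atp5b (−0.18) in T96K/T96K over T96K/+. The member medians were −0.09, −0.18 and 0.11. Without Trem2+/+ library 25 the medians of the comparisons with Trem2+/+ were 0.06 and −0.03. Without T96K/+ library 22 the medians were −0.22 in T96K/+ over Trem2+/+ and 0.14 in T96K/T96K over T96K/+.

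**Figure D5:**
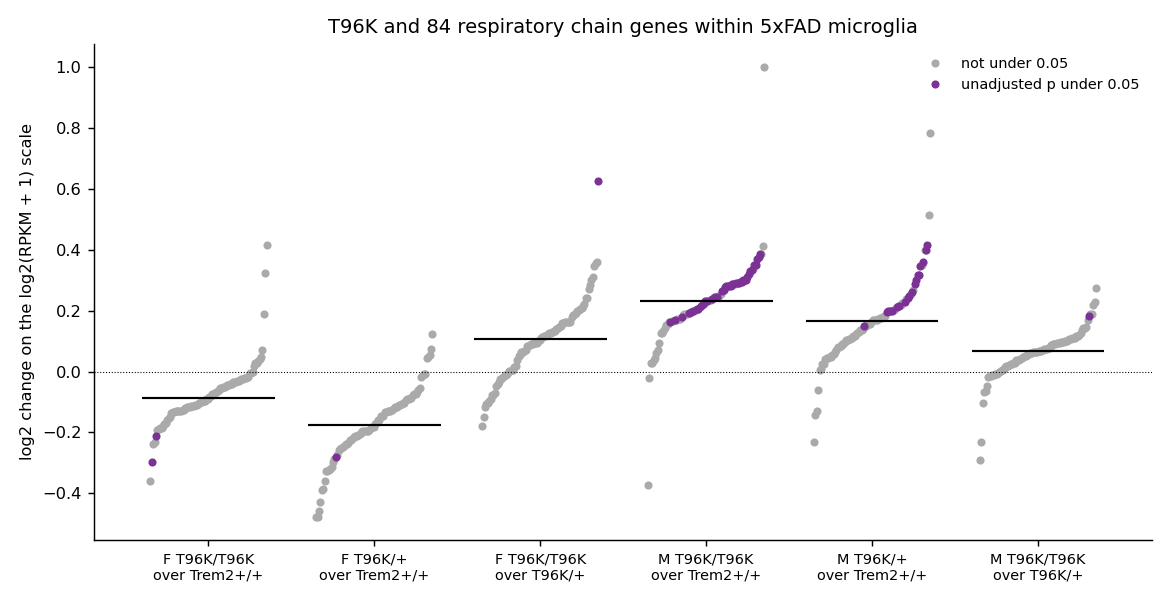
Log2 change of the 84 kept members in the 6 T96K comparisons within 5xFAD, females left and males right, sorted within each comparison. Bars are medians and purple points have an unadjusted p under 0.05, none of which passed adjustment; the male medians over Trem2+/+ are 0.23 and 0.16 and the female ones −0.09 and −0.18.

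Male members lay slightly above Trem2+/+ in both T96K genotypes, with no call after adjustment. In T96K/T96K over Trem2+/+, 82 of 84 members were above 0 with a median of 0.23, beside 0.00 over all genes, and 41 (48.8%) were higher at an unadjusted p under 0.05, beside 3.97% of all genes. In T96K/+ over Trem2+/+, 80 of 84 were above 0 with a median of 0.16, beside −0.02, and 19 (22.6%) were higher at an unadjusted p under 0.05, beside 4.54%. Adjusted over all genes, 0 of 84 members and 0% of all genes were called in these and in T96K/T96K over T96K/+, where 1 member was higher at an unadjusted p under 0.05, beside 1.70%. The medians over Trem2+/+ ran from 0.18 to 0.30 for T96K/T96K and from 0.11 to 0.25 for T96K/+ when each library was left out. The members are strongly correlated, so their number does not count independent observations, and the difference of this effect from that in females was not tested.

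The male members with the smallest p were subunits of complexes I and V. Ndufv1, the NADH-binding flavoprotein of complex I, had 55.2 to 65.6 RPKM with a median of 58.96 in T96K/+, against 48.2, 44.2, 48.1, 40.8 and 51.6 RPKM in Trem2+/+. The groups did not overlap, and the log2 difference was 0.35 ± 0.09 (SE, adjusted p = 0.253). Atp5b had 218 to 232 RPKM with a median of 224 in T96K/+, against 203, 192, 193, 172 and 202 RPKM in Trem2+/+, again without overlap (0.23 ± 0.08, adjusted p = 0.303), and Ndufb6 differed by 0.40. Ndufb4, an accessory complex I subunit, had 11.96 to 16.1 RPKM with a median of 14.6 in T96K/T96K, against 11.3, 8.76, 12.2, 12.3 and 11.6 RPKM in Trem2+/+, with overlap (0.33 ± 0.09, adjusted p = 0.470), followed by Ndufb11 (0.37) and Atp5g1 (0.29). Between the T96K genotypes the smallest p belonged to Atp5d (0.18 ± 0.07, adjusted p = 0.999), Ndufs8 (0.17) and Ndufa1 (0.23). The widest male difference was that of Ndufa4l2, with 1.79 to 14.5 RPKM in T96K/T96K and 1.75 to 9.77 in T96K/+, against 0.937, 2.53, 2.63, 4.74 and 1.57 RPKM in Trem2+/+. The groups overlapped, and the log2 differences of 1.003 ± 0.49 (adjusted p = 0.585) and 0.78 ± 0.49 (adjusted p = 0.502) were not called. No marker of any cell type list was called in a male comparison, but 0% of all genes were, so this does not compare cell content. Summed endothelial markers were 538 to 2050 RPKM in T96K/T96K and 541 to 1921 in T96K/+, against 563 to 1275 RPKM in Trem2+/+, and mural markers 220.2 to 1008 and 245 to 827, against 200.8 to 344 RPKM. Their part in these values was not tested beyond the fit with marker scores, in which the medians over Trem2+/+ were 0.19 and 0.25.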

How the data were processed

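Values were the RPKM that the authors deposited per gene, in 1 table for 27 female and 1 for 17 male libraries. Per the labels' protocols, cDNA was made with a SMART-Seq kit and libraries with Nextera XT, which keep no strand. The series text gives STAR and mm9, and per the submitters' processing notes HTSeq and edgeR were used; versions and settings are not given in the sources used here. The tables were scaled separately, so tests stayed within a table. RPKM times gene length gave whole reads for 100% of values within 0.01 reads, which is the source of the depths. Merged exon lengths lower the RPKM of some members, so members were compared between groups, and the isoform shares depend on these lengths.

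Genes with 1 RPKM in 5 libraries were kept and log2(RPKM + 1) was fitted with limma 3.58.1 (R 4.3.3, trend and robust options), with 1 mean per genotype group. A pseudocount of 1 understates the change of low genes. P-values were adjusted by Benjamini-Hochberg over all genes of a table, and genes under 0.05 were called. The fit was tested on simulated data. The labels number the libraries and do not say that each number is a mouse, so the p-values reflect library-to-library spread, which may be technical. Members, lists and the naming rule (Cox6a2, up to 8 called rises and falls, or the 3 smallest p where fewer than 3 were called, isoform pairs, neighbours, the 5 genes most like Cox6a2) were chosen with earlier results of these data known. Alternatives were a pseudocount of 0.1, no filter, quantile, median and TPM scaling, library sets, marker scores, only the groups compared, and each library left out.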

Additional observations from a re-analysis of the deposited data

Results flagged for a closer look

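Of 70 groups of libraries tested over 10 genes, 2 had a library far from the others. Chance flags about 1 group in 20, so 2 of 70 is no more than chance gives. Cox6a2 reached 477 RPKM in female 5xFAD T96K/+ library 26, against 120.2 to 207 RPKM in the other 8 libraries of the group. Ndufa4l2 reached 12.9 RPKM in female 5xFAD T96K/T96K library 34, against 5.72 RPKM or less in the other 6. Both libraries are high-numbered.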

How the results depend on the processing

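Cox6a2 kept its call against NonTg under 36 of 37 alternatives in each 5xFAD group, with log2 changes of 3.98 to 6.82 in T96K/T96K, 4.06 to 6.44 in T96K/+ and 4.70 to 6.91 in Trem2+/+; the exception was high-numbered libraries alone, chosen after seeing the data. The counts of members called in either direction against NonTg (24 in T96K/T96K, 13 in T96K/+ and 35 in Trem2+/+) moved by over 1.5 times as follows. The cause was not tested. High-numbered libraries alone gave 0 in each, marker scores as covariates 2, 1 and 1, no filter 14 and 8 in T96K/T96K and T96K/+, and library set as a covariate 37 and 31 in the same groups. In T96K/+, low-numbered libraries gave 24 (22 higher, 2 lower) and TPM 33 (3 higher, 30 lower). In Trem2+/+, quantile normalization gave 23 (16 higher, 7 lower) and only the groups compared 18. TPM totals of 35 in T96K/T96K and 29 in Trem2+/+ moved less, but most of these calls were lower. They were 8 higher and 27 lower in T96K/T96K, and 7 higher and 22 lower in Trem2+/+. Leaving out 1 library gave 11 to 31 in T96K/T96K, 4 to 27 in T96K/+ and 17 to 47 in Trem2+/+, and 0 to 0 in the T96K comparisons, which held 0 calls under every alternative. Ndufa4l2 in Trem2+/+ reversed to 0.42 (adjusted p = 0.632) with high-numbered libraries alone, a value that rests on 1 Trem2+/+ and 2 NonTg libraries. No paired analysis was possible because the genotype groups compared within a sex share no library number. Low depth limits Cox6a2 in the low-numbered NonTg libraries, which hold 5 to 9 reads.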
